A study of Mus musculus with 2 samples.

Results

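The genes described here encode proteins of the nuclear lamina and of the chromatin it contacts: the lamins Lmna, Lmnb1 and Lmnb2, the lamin B receptor Lbr, the high mobility group (HMG) genes Hmgb1, Hmgb2, Hmgb3 and Hmga1, and the histone gene H2afz. They were chosen by name as a list, and all 9 were among the 15526 genes of the table. The levels of these genes were compared between the cell types of a sorted lung population, and between endothelial cells with and without transcripts of Cdkn2a, the gene of the cell-cycle inhibitor p16.

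The cells came from the lungs of p16-FDR mice on the C57BL/6 background, aged 20 to 22 months, and had been sorted for mCherry. The p16-FDR allele carries an FLP recombinase together with a diphtheria toxin receptor fused to mCherry, so every cell of the table carried the allele and had passed the same gate. Cells without mCherry, young mice and mice without the allele were not analysed here. The labels give 1 group with 2 samples, and the cell names give 2 libraries that match neither sample title.

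The lamina is a meshwork of A-type and B-type lamins under the inner nuclear membrane, which gives the nucleus its stiffness and tethers silent chromatin to the nuclear edge. HMGB proteins are abundant chromatin proteins that bend DNA. Loss of lamin B1 and loss or release of HMGB1 and HMGB2 are widely used signs of senescence in cultured cells, and lamin B1, HMGB2 and the histone variant H2A.Z are also linked to dividing cells.

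The table held 1344 cells. Depth is given in unique molecular identifiers (UMIs). Library 1 had 1145 cells and a median depth of 5631, and library 2 had 199 cells and a median depth of 6716. No cell barcode was shared between the libraries. Because the libraries could not be tied to the samples they were pooled as 1 sample, so no test was run and no p-value is given. A level is the number of UMIs of a gene per 10000 UMIs of the cells in a class. Ranges in parentheses are 95% exact Poisson intervals, which cover counting error only and not the difference between animals. Classes were clusters named from marker genes, and clustering did not use the 9 genes. The 603 endothelial-like cells had UMIs of the endothelial adhesion gene Cdh5 in 99.8% of cells, against 3.64% of all other cells. Of these 603 cells 154 were in library 2.

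Upstream sequences are shown for 3 of the genes, because Hmgb2 and H2afz had higher levels in cells with transcripts of the cell cycle, while the level of Lbr there overlapped that of the other cells. Each is the 250 bases before a RefSeq start site, 5′ to 3′ in the direction of the gene, from the RefSeq promoters of GRCm38.p6, whose coordinates are those of mm10. Capitals mark CCAAT, the letters of the NF-Y box, and TTTGAA, the letters of the cell cycle genes homology region, on either strand.
Lbr: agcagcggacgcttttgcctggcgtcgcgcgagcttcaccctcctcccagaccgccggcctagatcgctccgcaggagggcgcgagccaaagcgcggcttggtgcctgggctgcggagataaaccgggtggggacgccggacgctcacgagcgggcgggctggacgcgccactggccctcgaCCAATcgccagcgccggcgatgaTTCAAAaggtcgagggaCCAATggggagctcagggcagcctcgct
Hmgb2: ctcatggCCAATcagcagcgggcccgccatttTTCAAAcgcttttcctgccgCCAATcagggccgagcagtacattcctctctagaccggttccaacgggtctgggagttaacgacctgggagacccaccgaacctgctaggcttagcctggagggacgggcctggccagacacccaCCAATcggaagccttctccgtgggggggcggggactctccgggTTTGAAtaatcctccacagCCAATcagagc
H2afz: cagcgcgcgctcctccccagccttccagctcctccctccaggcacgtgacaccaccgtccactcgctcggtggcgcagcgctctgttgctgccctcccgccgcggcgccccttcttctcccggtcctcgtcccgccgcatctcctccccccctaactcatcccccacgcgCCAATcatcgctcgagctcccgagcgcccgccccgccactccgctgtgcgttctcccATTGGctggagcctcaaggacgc

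The Lbr window is chr1:181842402-181842651 on the minus strand, the Hmgb2 window chr8:57511593-57511842 on the plus strand, and the H2afz window chr3:137864237-137864486 on the plus strand. The Hmgb2 window held CCAAT at 4 places, beginning 243, 198, 73 and 11 bases before the start, and TTTGAA at 30 bases before it and, on the opposite strand, at 218. In the H2afz window CCAAT stood at 80 bases and, on the opposite strand, at 23 bases before the start, and TTTGAA was not among its letters. The Lbr window had CCAAT at 68 and 28 bases and TTTGAA on the opposite strand at 45 bases. No marked stretch overlapped another. Of 32851 RefSeq windows of the same length 33.8% held CCAAT at least once, 10.1% at least 2 times and 2.79% at least 3 times, 16% held TTTGAA, and 5.55% held both. For 8 of the 9 genes 12 RefSeq windows were searched, and 6 of these 12 windows held CCAAT. Windows of Lmnb1 are not reported here. The H2afz window overlapped 1 exon in the GENCODE annotation. These are matches of letters, and binding was not measured.

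Lmna, which encodes the A-type lamins A and C, was the lamin gene with the most transcripts (chr3:88480147-88509956, minus strand). It was highest in alveolar-macrophage-like cells, at 5.39 UMIs per 10000 (4.47 to 6.45, 20 cells), and in contractile-mesenchymal-like cells, at 5.31 (4.75 to 5.93, 91 cells). The contractile-mesenchymal-like class was led by Acta2 and Tagln, but their UMIs were found in only 36.3% and 28.6% of its cells. It matched 7 of 8 fibroblast markers and 3 of 7 contractile markers, so its levels are not those of contractile cells alone. Interstitial-macrophage-like cells at 3.49 (3.08 to 3.95), fibroblast-like cells at 3.25 (2.90 to 3.64), endothelial-like cells at 2.81 (2.64 to 2.99), the unnamed cluster 8 at 2.48 (2.13 to 2.87) and T-cell-like cells at 2.08 (1.73 to 2.47) followed. In this middle group each class overlapped the next in its interval, so the order of neighbours was within counting error. Levels then dropped to 0.986 (0.741 to 1.29) in serous-cavity-macrophage-like cells, 0.536 (0.379 to 0.736) in plasma-cell-like cells and 0.331 (0.202 to 0.511) in B-cell-like cells. Lmna UMIs were found in 10 of 82 B-cell-like cells and in 19 of 20 alveolar-macrophage-like cells. The share of cells expected to show a Lmna UMI after each cell is thinned to 2500 UMIs was 6.05% and 67.7% in those classes and 47.8% in endothelial-like cells. Plasma-cell-like cells spent 65.9% of their UMIs on 5 genes, which lowers their level of every other gene.

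Lmnb1 and Lmnb2 encode the B-type lamins, which stay attached to the nuclear membrane. Lmnb1 was sparse, with 186 UMIs in 114 of 1344 cells. Cluster 8 had the highest Lmnb1 level, 0.826 (0.632 to 1.06), with UMIs in 25 of its 75 cells. This cluster was led by Mmp12, Ccl17, Tnip3, H2-M2 and Ccl22, genes of macrophages and dendritic cells, and no marker list gave it 1 name. T-cell-like cells had 0.556 (0.385 to 0.777) and B-cell-like cells 0.496 (0.335 to 0.708). In B-cell-like cells 18 of the 30 Lmnb1 UMIs came from 1 cell, and the level without it was 0.207. In contractile-mesenchymal-like cells 10 of 13 UMIs came from 1 cell, and 0.214 became 0.0501. Endothelial-like cells had 0.0590 (0.0365 to 0.0902), with 1 UMI each in 21 of 603 cells. That was close to the levels in fibroblast-like (0.0630), interstitial-macrophage-like (0.0674), plasma-cell-like (0.0705) and serous-cavity-macrophage-like cells (0.0548), all with overlapping intervals. No class here is known to lack Lmnb1, and levels this low cannot be told apart from free RNA in the droplets. Lmnb2 (chr10:80901203-80918245, minus strand) had 57 UMIs in 53 cells. It reached 0.175 (0.0934 to 0.300) in interstitial-macrophage-like cells, or 0.122 without 1 cell, and 0.0730 (0.0477 to 0.107) in endothelial-like cells, and the intervals of all 10 classes formed an overlapping chain.

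Lbr encodes the lamin B receptor, a protein of the inner nuclear membrane that binds B-type lamins and heterochromatin protein 1 (chr1:181815335-181843046, minus strand). T-cell-like cells had the highest level, 1.19 (0.936 to 1.5), and endothelial-like cells came next at 0.739 (0.652 to 0.834). B-cell-like cells followed at 0.695 (0.501 to 0.939), serous-cavity-macrophage-like cells at 0.566 and interstitial-macrophage-like cells at 0.553. Each of these overlapped its neighbour, and only the step from T-cell-like to endothelial-like cells exceeded the intervals. The intervals of T-cell-like and B-cell-like cells just overlapped. Lbr was low in fibroblast-like cells, at 0.157 (0.0881 to 0.260), and in alveolar-macrophage-like cells, at 0.0906 (0.0110 to 0.327, from 2 UMIs). Its interval in alveolar-macrophage-like cells overlapped those of plasma-cell-like (0.127) and fibroblast-like cells.

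Hmgb1, the most abundant HMGB gene in these cells, had UMIs in 1206 of 1344 cells (chr5:149046702-149184489, minus strand). Its level was 6.55 (5.92 to 7.23) in contractile-mesenchymal-like cells, 6.33 (6.07 to 6.60) in endothelial-like cells and 5.84 (5.36 to 6.34) in fibroblast-like cells. These 3 tissue-forming classes overlapped in their intervals and stood above the lymphocytes only in part, since the interval of fibroblast-like cells reached that of T-cell-like cells at 4.86 (4.32 to 5.44). B-cell-like cells were at 4.85 (4.31 to 5.44). Cluster 8 at 3.25, interstitial-macrophage-like cells at 2.94, serous-cavity-macrophage-like cells at 2.85 and alveolar-macrophage-like cells at 1.95 (1.41 to 2.62) were lower. All 4 macrophage-marked or unnamed classes thus had less Hmgb1 than the endothelial-like class, with intervals that did not overlap it.

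Hmgb2, the HMGB gene linked to proliferating and lymphoid cells, ran in a different order (chr8:57511907-57515999, plus strand). T-cell-like cells had 5.28 (4.72 to 5.89), with UMIs in 122 of 156 cells. B-cell-like cells had 3.80 (3.33 to 4.33) and cluster 8 had 3.43 (3.02 to 3.88). A single cell supplied 97 of the 230 Hmgb2 UMIs of the B-cell-like class and another 129 of the 253 UMIs of cluster 8, and the levels without them were 2.29 and 1.73. The level was 1.88 (1.58 to 2.21) in interstitial-macrophage-like cells. It was 1.13 in endothelial-like cells, whose interval lay wholly below. Contractile-mesenchymal-like cells (0.808) and fibroblast-like cells (0.682), which were high in Hmgb1, were among the lowest in Hmgb2.

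Hmgb3 and Hmga1 were close to the limit of detection. Hmgb3 (chrX:71555918-71560676, plus strand) had 56 UMIs in 51 cells, 24 of them in endothelial-like cells at 0.0674 (0.0432 to 0.10), and its class intervals overlapped throughout. Hmga1, an architectural protein that binds AT-rich DNA (chr17:27556497-27563674, plus strand), had 7 UMIs in 7 cells, of which 4 were endothelial-like. It was found in 0 of 156 T-cell-like cells, and a count of 0 there still permits 1.92% of such cells to hold a UMI. The last 500 bases of the longest Hmga1 transcript shared 88.9% of their 50-base stretches with Hmga1b, a near-identical gene, so the counting may split reads between them and the Hmga1 values are uncertain. Lmna, Lmnb1, Lmnb2, Lbr, Hmgb1, Hmgb2 and H2afz shared 0% of such stretches with other annotated genes, and Hmgb3 shared 2%.

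H2afz encodes H2A.Z, a histone variant placed at gene starts and regulatory sites (chr3:137864487-137866922, plus strand). Cluster 8 had by far the highest level, 12.2 (11.4 to 13), or 10.9 without 1 cell, with UMIs in 71 of 75 cells. The 64 cells of library 1 had a level of 11 (10.2 to 11.9), and the 11 cells of library 2 one of 17.9 (15.6 to 20.4), so the libraries did not overlap. T-cell-like cells at 6.20 (5.59 to 6.85) and serous-cavity-macrophage-like cells at 5.95 (5.33 to 6.64) overlapped, as did B-cell-like cells at 4.96 and alveolar-macrophage-like cells at 4.80. Interstitial-macrophage-like cells had 3.72 (3.3 to 4.19). Endothelial-like cells at 2.11 (1.97 to 2.27), fibroblast-like cells at 1.75 and contractile-mesenchymal-like cells at 1.65 formed the low end, above plasma-cell-like cells at 0.818.

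**Figure D1:**
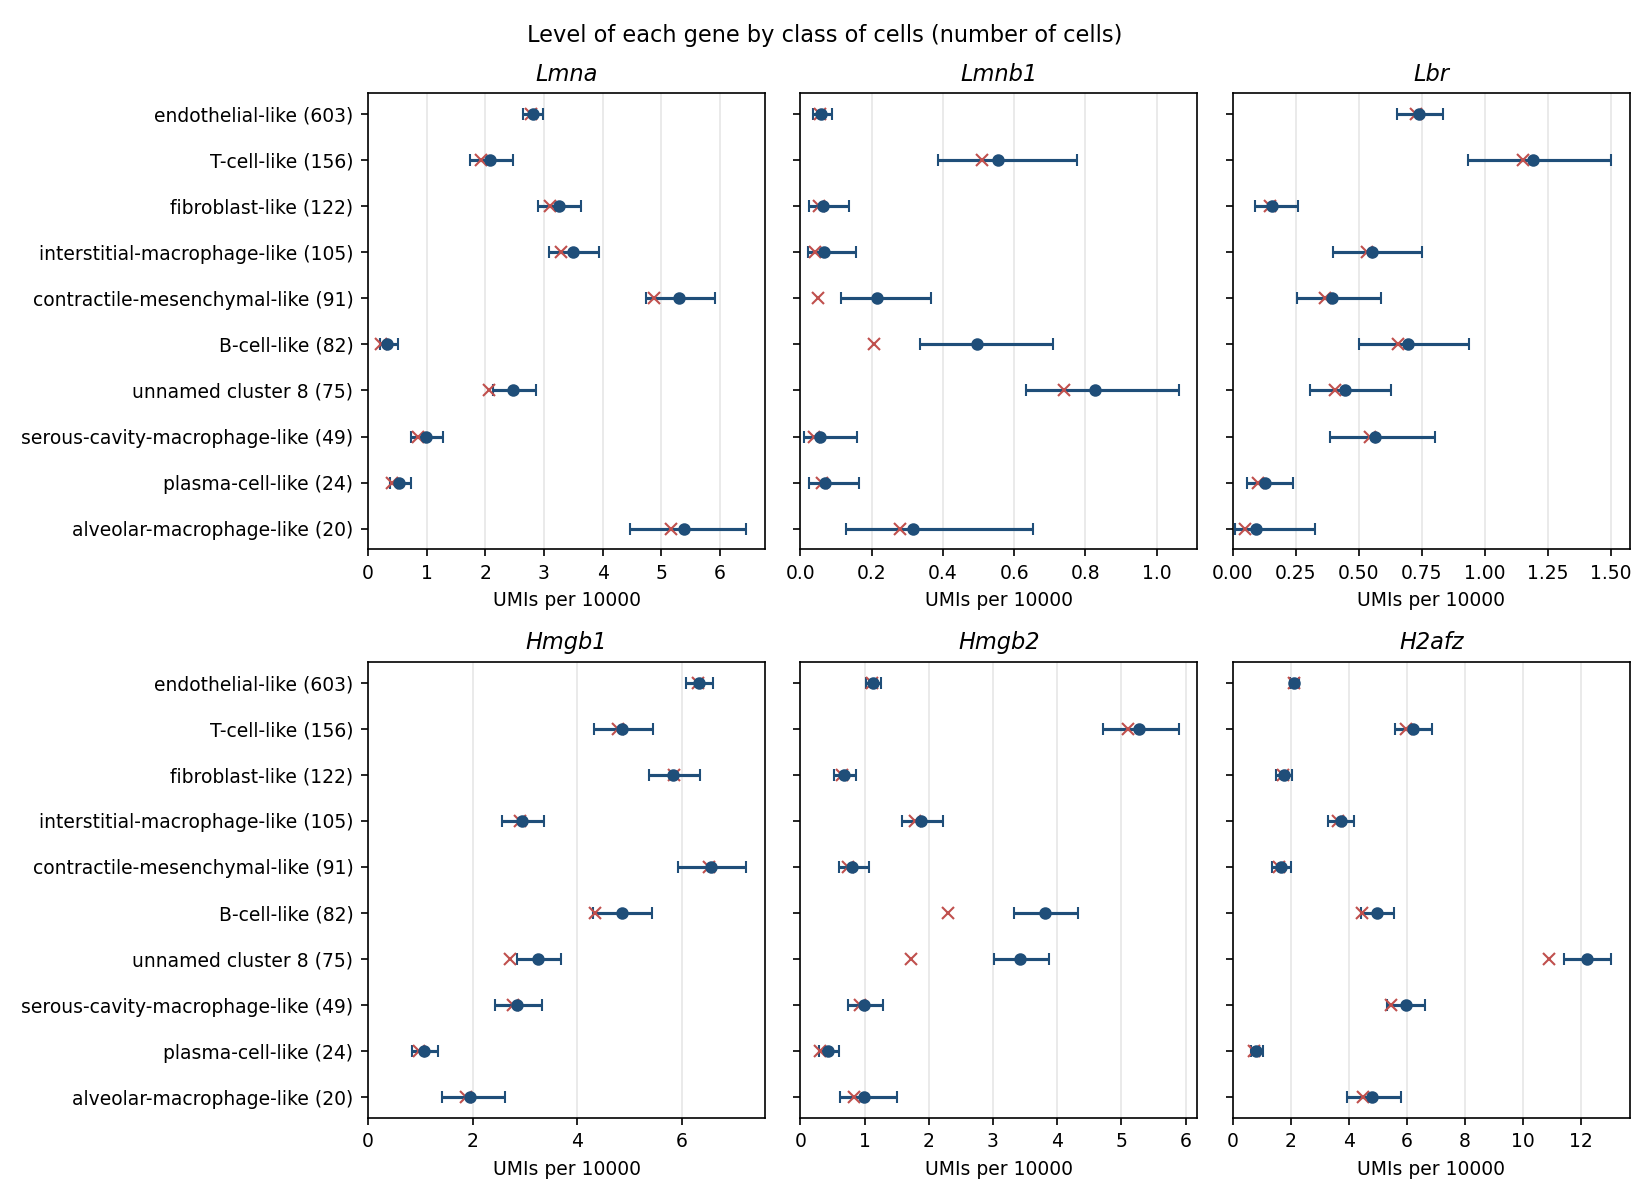
UMIs per 10000 of 6 of the genes (x axes, linear, each from 0) in the 10 classes of at least 20 cells (y axis, number of cells in parentheses); points with bars are levels with 95% exact Poisson intervals and crosses the level without the cell with most UMIs of the gene. Lmna, Hmgb1 and H2afz peak in different classes, and the crosses for Hmgb2 in B-cell-like cells (2.29) and cluster 8 (1.73) lie far below the points.

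Across the 10 classes the genes fell into different patterns. On the scale of log2(level + 0.1), Hmgb2 and H2afz had a Pearson correlation of 0.78, Lmnb1 and Hmgb2 of 0.76, Lbr and Hmgb2 of 0.73, and Lmnb1 and H2afz of 0.67. Lmna correlated with none of Lmnb1 (-0.03), Hmgb2 (-0.14) or H2afz (0.03), and Hmgb1 and H2afz were at 0.10. These are descriptions over 10 classes that share 2 libraries. Single cells contributed to them, and the classes differed in depth, with medians between 3636.5 UMIs (T-cell-like) and 30153.5 UMIs (plasma-cell-like). The genes whose class pattern was most like that of Lmna were Dst (r = 0.95), Mxi1 (0.93) and Syne2 (0.91). For Lmnb1, Rhof (0.89) and Tes (0.89) were among them. For Lbr they were Rcsd1, Rsbn1l and Pcif1 (0.92 each to 2 decimals). Ntan1 (0.99), Cldnd1 (0.98) and Nudc (0.98) were most like Hmgb1. Akna (0.96), H2-Q10 (0.95) and Cntrl (0.94) were most like Hmgb2. Slfn2, Rel and Sh3bgrl3 (0.93, 0.93 and 0.92) were most like H2afz.

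Endothelial-like cells were next set against all other cells together, since they made up 44.9% of the table. Lbr and Hmgb1 were higher in endothelial-like cells and Lmnb1, Hmgb2 and H2afz were lower, each by at least 1.5-fold, while Lmna differed by less. Lbr had 0.739 against 0.450 (0.399 to 0.506), a ratio of 1.64 (1.38 to 1.95). Hmgb1 had a ratio of 1.61 (1.52 to 1.71). A gene was compared when 5% or more of the cells of either group had a UMI of it, which 6 of the 9 genes met and Lmnb2, Hmgb3 and Hmga1 did not. Of these 6 genes 2 were higher, beside 34.7% of the 10162 genes that passed the same filter, and 3 were lower, beside 19.1%. The share of the 6 genes that were higher was thus near that of all genes, and the share that were lower was above it. Lmnb1 passed the filter only through the other cells, with UMIs in 12.6% of them and in 3.48% of endothelial-like cells. Its direction was thus partly set by the filter, which limits what the count of lower genes can show. The median log2 ratio of all genes was 0.36, and that of the 6 genes was -0.25.

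The lower levels were 0.0590 against 0.267 (0.228 to 0.311) for Lmnb1, a ratio of 0.221 (0.133 to 0.349), and 2.11 against 4.37 (4.2 to 4.53) for H2afz, a ratio of 0.484 (0.446 to 0.525). Hmgb2 had 1.13 against 1.94 (1.83 to 2.05), a ratio of 0.585 (0.521 to 0.655). Lmna was at 2.81 against 2.39 (2.27 to 2.51), a ratio of 1.18 (1.09 to 1.28). Both libraries gave ratios on the same side for 5 of these genes. Library 1 gave 0.248 for Lmnb1, 0.485 for H2afz, 0.618 for Hmgb2, 1.64 for Hmgb1 and 1.71 for Lbr, and library 2 gave 0.128, 0.331, 0.659, 2.24 and 2.14. Library 1 gave a Lmna ratio of 1.06 (0.959 to 1.17) and library 2 one of 0.993 (0.833 to 1.19), so its pooled ratio went beyond that of either library. Library 2 held 25.5% of endothelial-like cells and 6.07% of the others, and its Lmna level was higher on both sides, 3.80 against 2.26 of library 1 among the other cells.

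The other cells are a mixture, and 2 of its parts moved the ratios. Without the 24 plasma-cell-like cells Hmgb1 had a ratio of 1.47, and Lbr one of 1.5, with a log2 ratio of 0.50 once 0.1 was added to both levels, which also missed the limit. No gene then counted as higher. Cells with a UMI of Mki67 or Top2a numbered 38 and none was endothelial-like, and without them Hmgb2 had a ratio of 0.724 and Lmnb1 one of 0.283. Genes of the dissociation and heat-shock response were lower in endothelial-like cells for 9 of 12 genes, among them Hspa1a (1.19 against 9.63 per 10000), and their part in these ratios was not tested.

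**Figure D2:**
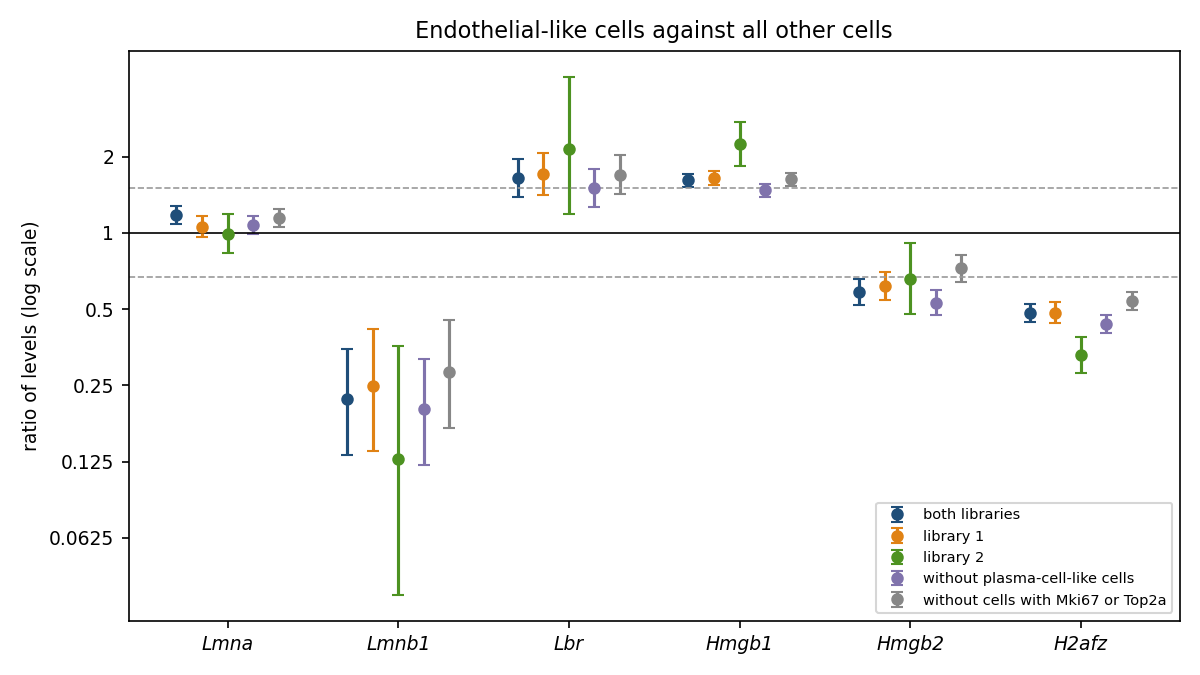
Ratio of levels between endothelial-like cells and all other cells (y axis, log scale) for 6 genes, in both libraries, each library, and without plasma-cell-like cells or cells with Mki67 or Top2a; bars are 95% exact intervals for counting error and dashed lines mark 1.5-fold. Lmnb1, Hmgb2 and H2afz lie below 1 and Lbr and Hmgb1 above 1 in all 5 settings shown, and Lmna lies between 0.993 and 1.18.

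The endothelial-like class held 2 clusters. Cluster 1 (453 cells) was led by Car4, Apln, Cyp4b1, Emp2 and Kdr, genes of the Car4-high capillary cells of the alveolus, and cluster 3 (150 cells) by Ptprb, Plvap, Vwf, Edn1 and Gja4, genes of other capillaries and larger vessels. Cluster 3 also matched 7 of 7 Car4-high capillary markers beside 6 of 6 of other capillaries, so the clusters are not a clean split of vessel types. Lmna was higher in cluster 1, at 3.13 (2.91 to 3.37) against 2.16 (1.90 to 2.44). The other 8 genes had their higher level in cluster 3, and for Hmgb1, Lbr, Hmgb2 and H2afz the intervals of the clusters did not overlap. The share of all genes higher in cluster 3 was not computed, so these counts do not set the list apart from all genes. Hmgb1 was at 5.67 (5.37 to 5.98) in cluster 1 and 7.66 (7.17 to 8.18) in cluster 3, Lbr at 0.601 (0.507 to 0.708) and 1.01 (0.841 to 1.21), Hmgb2 at 1.01 (0.886 to 1.15) and 1.39 (1.18 to 1.62), and H2afz at 1.93 (1.75 to 2.11) and 2.49 (2.22 to 2.80). Hmgb3, with 9 and 15 UMIs, was at 0.0378 (0.0173 to 0.0718) and 0.127 (0.0710 to 0.209), intervals that just overlapped. Lmnb1 was at 0.0505 and 0.0761 from 12 and 9 UMIs, and Lmnb2 at 0.0589 and 0.101, with overlapping intervals, and Hmga1 had 1 and 3 UMIs. Cells of cluster 3 were deeper, with a median of 7126 UMIs against 5100, which a level per 10000 already scales.

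Within each library the order of the clusters was the same for Lmna, Lbr, Hmgb1, Hmgb2 and H2afz, but its size was not. Cluster 1 had Lmna at 2.58 (2.34 to 2.85) in the cells of library 1 and at 4.10 (3.69 to 4.56) in those of library 2. Cluster 3 had 2.10 (1.82 to 2.41) and 2.41 (1.79 to 3.18). In library 1 the Lmna intervals of the clusters overlapped at their ends, and in library 2 they did not. Hmgb1 in library 1 was 5.91 (5.53 to 6.31) in cluster 1 and 7.84 (7.29 to 8.41) in cluster 3, and in library 2 it was 5.23 (4.76 to 5.74) and 6.85 (5.77 to 8.07). Lbr in library 1 was 0.638 (0.517 to 0.778) and 1.04 (0.844 to 1.26), and in library 2, where cluster 3 had 22 cells, 0.536 and 0.916 with overlapping intervals. Hmgb2 intervals of the clusters overlapped in both libraries, at 1.12 and 1.39 and at 0.804 and 1.35. The library difference of Lmna in cluster 1 was thus larger than its cluster difference in library 1, and whether it comes from the animal, the sort or the preparation cannot be told apart.

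**Figure D3:**
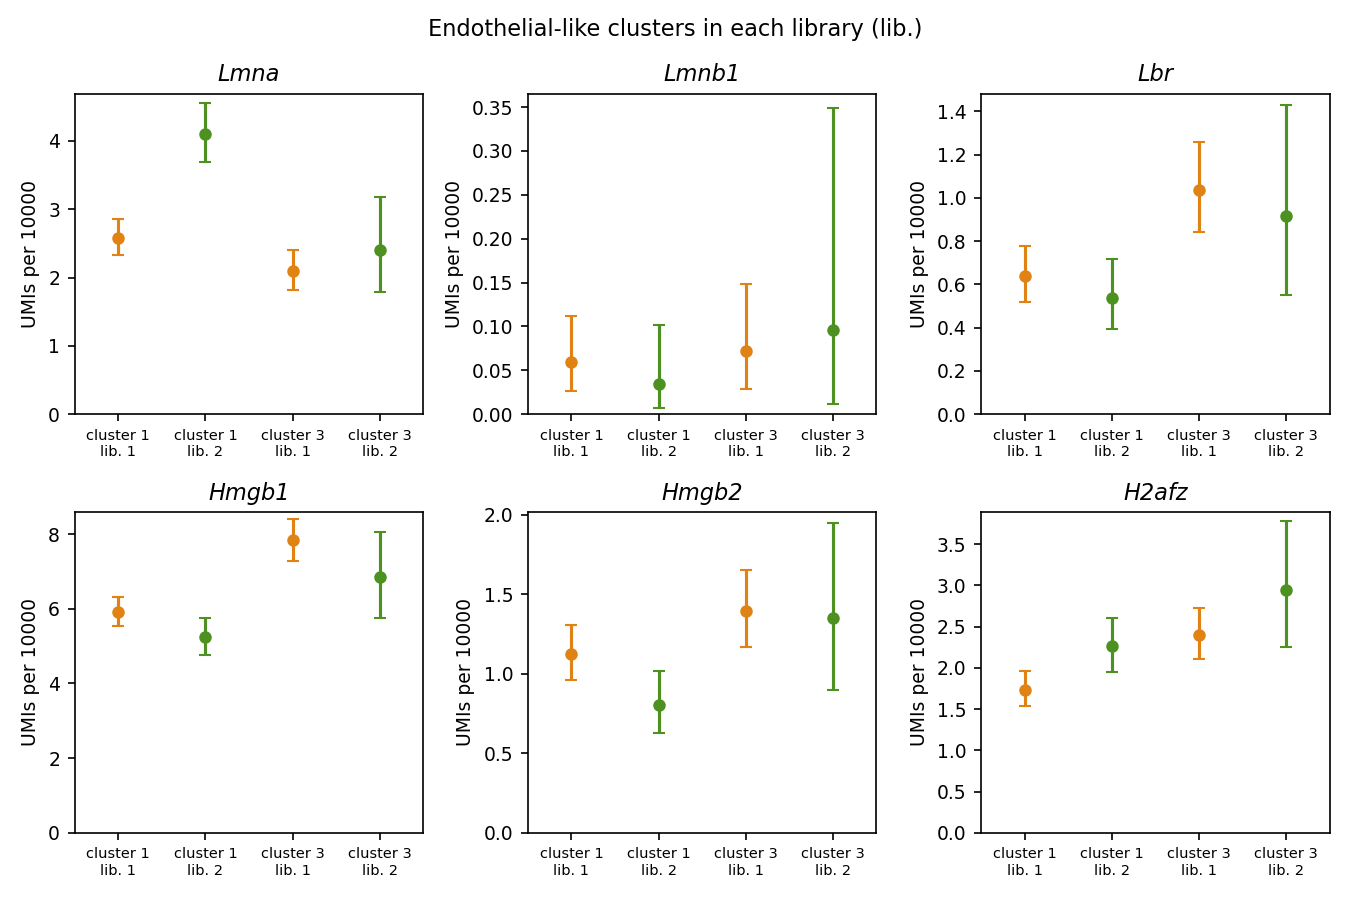
UMIs per 10000 of 6 genes (y axes, from 0) in the 2 endothelial-like clusters of each library (x axis); points are levels and bars 95% exact Poisson intervals. Lmna is highest in cluster 1 of library 2 (4.10), while Hmgb1, Lbr and Hmgb2 are higher in cluster 3 in both libraries.

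The comparison closest to the purpose of a p16 reporter was between endothelial-like cells with at least 1 Cdkn2a UMI (327 cells) and with none (276 cells). UMIs were counted per gene, so p16 transcripts were not told apart from any other transcripts of Cdkn2a. A cell without a Cdkn2a UMI can still express the gene, and the 327 cells were deeper, with a median of 5723 UMIs against 4627.5. Cells without Cdkn2a were therefore weighted to the same 10 bins of genes detected. Lmna was the 1 gene of the list that was at least 25% higher, at 3.12 (2.89 to 3.37) with Cdkn2a and 2.39 without after matching, a ratio of 1.31. Before matching the level without Cdkn2a was 2.37 (2.12 to 2.63) and the ratio 1.32 (1.16 to 1.51). Here 5 of the 9 genes had UMIs in 10% or more of the cells of either group. Of these 5 genes 1 was at least 25% higher, beside 12% of 7047 genes, and 0 were at least 20% lower, beside 9.35%. Those counts do not set the list apart from all genes.

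The genes whose loss is used as a sign of senescence differed little. Hmgb1 was at 6.15 (5.81 to 6.49) with Cdkn2a and 6.88 without after matching, a ratio of 0.893, and the ratio before matching was 0.932 (0.857 to 1.01). Hmgb2 was at 1.07 and 1.29, a ratio of 0.831, or 0.876 (0.717 to 1.07) before matching. Lbr had a ratio of 0.921, or 0.801 (0.624 to 1.03) before matching, and H2afz had 0.938, or 0.968 (0.836 to 1.12). All 4 of these intervals before matching include 1, and no interval was computed for the matched ratios. Hmgb1 and Hmgb2 had ratios below 1 in all 12 other settings, H2afz in 11 of 12 and Lbr in 9 of 12. These settings reuse the same cells and are not separate checks. The higher Leiden resolution gave groups of the same size, and leaving out the filter on low genes cannot change a ratio. The Hmgb2 log2 ratio ran from -0.492 with Cdkn2b in place of Cdkn2a to -0.031 when matched within library and cluster. The Lbr ratio changed side with the matching, to 1.14 within cluster and 1.17 within library and cluster. Lmnb1 had 13 UMIs in the 327 cells and 8 in the 276 cells, a ratio of 1.14 (0.440 to 3.18) before matching. With so few UMIs neither a loss nor a gain of Lmnb1 within that interval was detectable at this depth. Lmnb2 had 13 UMIs on each side and Hmgb3 13 and 11. Hmga1 had 0 UMIs with Cdkn2a and 4 without, 3 of which lay in cluster 3.

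The cells with and without Cdkn2a were not alike in other respects. Library 2 gave 36.1% of the cells with Cdkn2a and 13% of those without, and cluster 3 gave 16.2% and 35.1%. Both shift the comparison towards the cells that had the most Lmna. When cells were matched within cluster the Lmna ratio was 1.18, and within library and cluster it was 1.04. In library 1 alone it was 1.18 and in library 2 alone 0.989. In cluster 1 of library 1 Lmna was 2.58 (2.24 to 2.95) in 168 cells with Cdkn2a and 2.59 (2.23 to 3.0) in 153 cells without. In cluster 3 of library 1 it was 2.53 (2.06 to 3.07) in 41 cells and 1.80 (1.47 to 2.18) in 87 cells, with intervals that overlapped at their ends. Cluster 1 of library 2 gave 4.23 (3.76 to 4.74) in 106 cells and 3.51 (2.62 to 4.60) in 26 cells. Cluster 3 of library 2, with 12 and 10 cells, gave 2.47 (1.77 to 3.37) and 2.19 (1.0 to 4.03). The level with Cdkn2a was thus higher in 3 of the 4 parts and about equal in the largest, cluster 1 of library 1, and in each of the 4 the intervals overlapped. In cluster 3 Lmna was 1.83 (1.51 to 2.20) in 97 cells without a Cdkn2a UMI, 1.94 (1.34 to 2.71) in 19 cells with 1, and 2.77 (2.27 to 3.35) in 34 cells with 2 or more, and the first and last of these intervals did not overlap. In cluster 1 the corresponding levels were 2.75, 3.56 and 3.19, which do not follow the number of Cdkn2a UMIs.

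**Figure D4:**
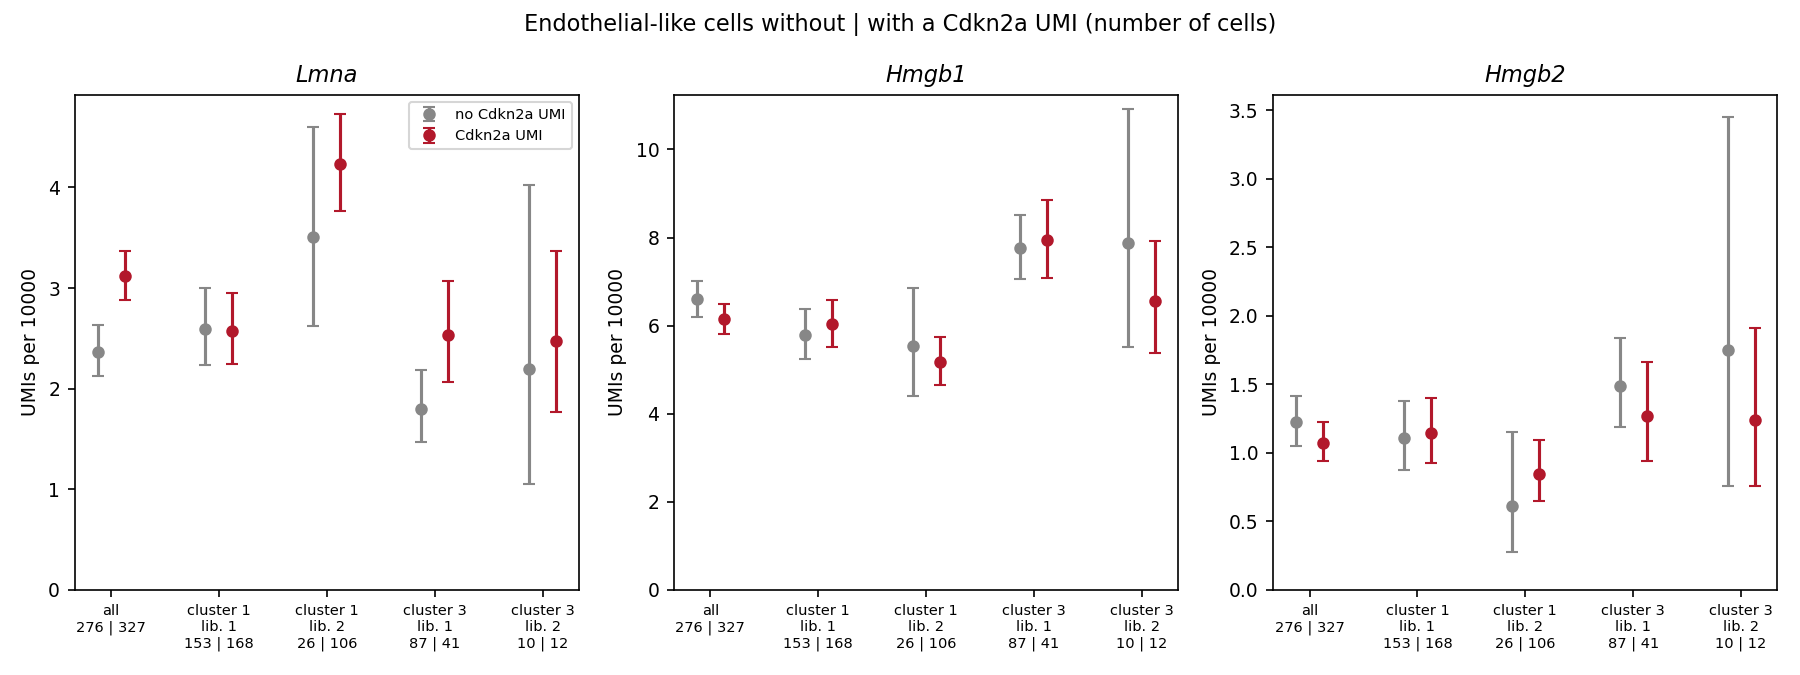
UMIs per 10000 of Lmna, Hmgb1 and Hmgb2 (y axes, from 0) in endothelial-like cells without (grey) and with (red) a Cdkn2a UMI, over all such cells and in each cluster and library (x axis, numbers of cells without and with); bars are 95% exact Poisson intervals. Lmna differs over all cells (2.37 and 3.12) and not in cluster 1 of library 1 (2.59 and 2.58), and the intervals of Hmgb1 and Hmgb2 overlap in every part.

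Other markers also moved with Cdkn2a. Cells without it had 13.2 UMIs per 10000 of 4 red-cell genes against 0.120, and 5.24 of 6 lymphatic markers against 0.474, and 1873 of the 1949 red-cell UMIs and 705 of the 771 lymphatic UMIs came from 1 cell each. Summed B cell markers were at 0.279 against 0.0144 and fibroblast markers at 0.218 against 0.0431, with 0 of 6 and 0 of 8 markers higher with Cdkn2a, and their part in the result was not tested. Without the 5 endothelial-like cells with at least 10 such UMIs the Lmna ratio was 1.32. The stress gene Atf3 was at 0.670 with Cdkn2a and 1.68 without, and 4 of 12 stress genes were at least 20% lower. The part of dissociation stress in the Lmna value was not tested.

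Cdkn2b, the neighbour of Cdkn2a that encodes the inhibitor p15, divided the endothelial-like cells in another way. With Cdkn2b in place of Cdkn2a, 404 cells with a UMI were set against 199 without. Lbr was then at 0.610 and 0.962 after matching on genes detected, a ratio of 0.634, and Hmgb2 at 1.02 and 1.48, a ratio of 0.691, while Lmna had a ratio of 1.19 and Hmgb1 of 0.945. Cluster 3, the cluster richer in Lbr and Hmgb2, gave 14.9% of the cells with Cdkn2b and 45.2% of those without, and its part in these values was not tested.

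In 3 other classes at least 20 cells had Cdkn2a UMIs and at least 20 had none. B-cell-like cells with Cdkn2a (26 cells) had 5.86 Hmgb2 UMIs per 10000 (4.91 to 6.94) against 2.54 (2.05 to 3.10) in 56 cells without, and 0.955 Lmnb1 UMIs (0.598 to 1.45) against 0.214 (0.0923 to 0.421). Those values rest on 1 cell, without which Hmgb2 was at 1.85 and Lmnb1 at 0.195. Without the cell with most UMIs on the other side those without Cdkn2a were at 2.40 and 0.163. Hmgb1 was at 6.16 (5.19 to 7.26) against 4.04 (3.42 to 4.73) in the same cells, and at 4.91 against 3.91 without those top cells. In interstitial-macrophage-like cells (24 and 81 cells) Lmna was at 3.62 and 3.45, Hmgb1 at 2.52 and 3.09, and H2afz at 3.05 and 3.96, with overlapping intervals. In serous-cavity-macrophage-like cells (24 and 25 cells) H2afz was at 5.96 and 5.95 and Hmgb1 at 2.54 (1.99 to 3.18) and 3.21 (2.55 to 3.98).

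The last comparison was between cells with and without transcripts of dividing cells, marked by a UMI of Mki67 or Top2a, a nuclear protein of cycling cells and a topoisomerase. There were 38 such cells, 35 of them in library 1, of which 12 were in cluster 8, 10 T-cell-like and 6 B-cell-like. Lmnb1, Hmgb2 and H2afz were all higher in them. Lmnb1 was at 1.06 (0.774 to 1.42) against 0.151 (0.127 to 0.179), Hmgb2 at 7.01 (6.23 to 7.85) against 1.40 (1.33 to 1.48), and H2afz at 10.2 (9.23 to 11.2) against 3.24 (3.13 to 3.36). Hmgb1 was at 4.37 (3.76 to 5.04) against 4.83 and Lbr at 0.637 (0.420 to 0.927) against 0.552, with overlapping intervals. Lmna was lower, at 1.34 (1.02 to 1.74) against 2.59 (2.49 to 2.70). The shares of all genes higher or lower in the 38 cells were not computed, so these values do not set the list apart from all genes.

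Class, depth and single cells all bear on these values. The 38 cells were deeper, with a median of 10227.5 UMIs against 5790, and after thinning to 2500 UMIs 15.1% and 3.52% of cells were expected to show Lmnb1, 45.1% and 29.3% Hmgb2, and 64.8% and 47.8% H2afz. With the other cells weighted to the same clusters their levels became 0.357 for Lmnb1, 1.94 for Hmgb2 and 6.05 for H2afz, and the ratios 2.97, 3.61 and 1.68 in place of 7.01, 5.0 and 3.14. For Lmna the ratio became 0.742 in place of 0.518, and for Hmgb1 1.48 in place of 0.904. A single cell of cluster 8, with 20992 UMIs, held 129 Hmgb2, 99 H2afz, 8 Lmnb1 and 0 Lmna UMIs beside 10 of Mki67 and 18 of Top2a. A single B-cell-like cell, with 24762 UMIs, held 97 Hmgb2, 41 H2afz, 18 Lmnb1 and 0 Lmna UMIs beside 11 of Mki67 and 13 of Top2a. Without the cell with most UMIs of the gene the 38 cells were at 0.677 for Lmnb1, 4.17 for Hmgb2 and 8.24 for H2afz. These levels were still above those of the other cells in the same clusters, but each leaves out only 1 cell. The 2 cells named above held 129 and 97 of the 297 Hmgb2 UMIs of the 38 cells, and 8 and 18 of the 45 Lmnb1 UMIs. Levels without both cells were not computed, so whether these genes stay higher without them was not tested.

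**Figure D5:**
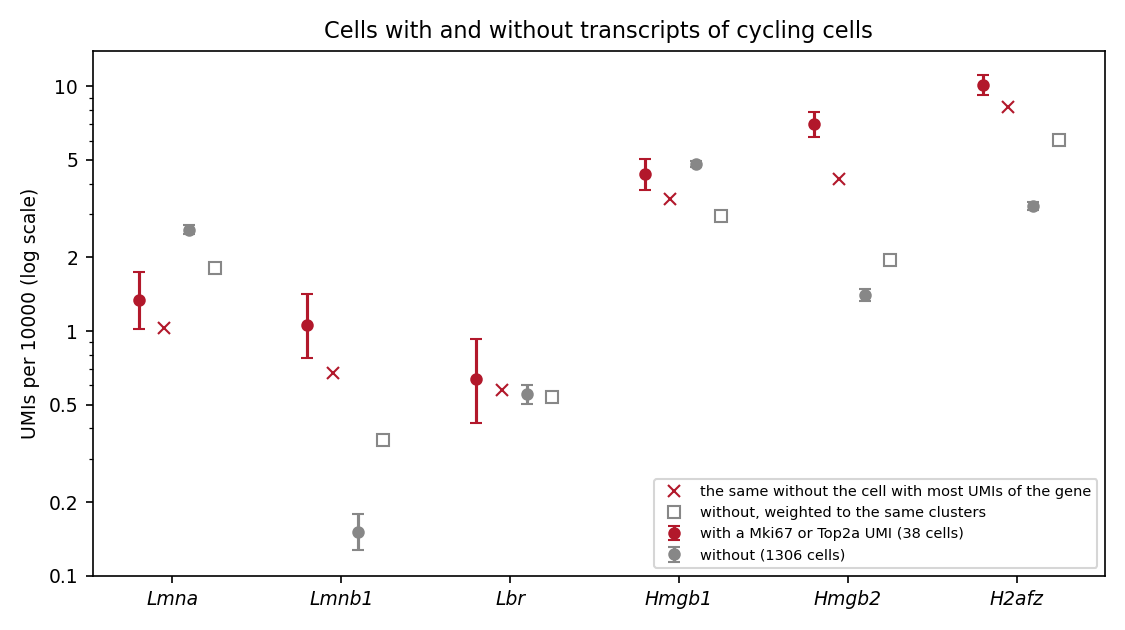
UMIs per 10000 (y axis, log scale) of 6 genes in 38 cells with a Mki67 or Top2a UMI (red) and in 1306 cells without (grey), with 95% exact Poisson intervals; crosses leave out the cell with most UMIs of the gene and squares weight the other cells to the same clusters. Lmnb1, Hmgb2 and H2afz are higher in the red points and crosses than in the squares, and Lmna is lower.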

How the data were processed

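RNA of mCherry-positive lung cells was sequenced from its 3′ end in droplets (Chromium v3 kit, per the labels' protocols). The submitters' processing notes name Cell Ranger 3.0.2 and mm10, and how cells were filtered is not stated there. The table deposited by the authors holds the natural log of 1 plus the UMIs of a gene scaled to 10000 per cell, as its values show. Whole UMIs were recovered from them (largest deviation 1.78e-10) and summed over cells. No column of cells was left unused.

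Cells were clustered with scanpy 1.11.5 (2000 variable genes without the 9 genes, the gene lists and Cdkn2a; 20 components, 15 neighbours, Leiden resolution 0.5 with igraph 0.11.9) and named from 26 marker lists. No doublets were removed. Log2 ratios have 0.1 added to each level, and printed ratios do not. The 9 genes and the 8 gene lists were chosen with earlier results of these data known. Named genes are the 9, up to 4 per list with the largest ratio, up to 5 leading genes of a cluster and the 3 most alike in class pattern, of which 1 is not reported here. The Cdkn2b, library-and-cluster, class-weighted and rare-marker alternatives were added after seeing the data. Scripts were tested on simulated counts. Gene positions are those of GENCODE M21 on GRCm38.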

Additional observations from a re-analysis of the deposited data

How the results depend on the processing

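The number of genes higher in endothelial-like cells, 2, became 0 with the mean of per-cell levels (Lbr 1.32, Hmgb1 1.37) and 0 without plasma-cell-like cells. The other 9 settings gave 2, and the number lower was 2 or 3 in all 11. Lmnb1 and H2afz were past 1.5-fold lower in all 11 settings. These settings reuse the same cells and are not separate checks. The higher Leiden resolution gave groups of the same size, and leaving out the filter on low genes cannot change a ratio. In the comparison by Cdkn2a the number higher, 1, became 0 when matched within cluster, in library 1 alone, with Cdkn2b in place of Cdkn2a and when matched within library and cluster. In library 2 alone it was 1 of 5, beside 31.2% of 7624 genes, and that gene was Lbr (ratio 1.46), not Lmna. The number lower, 0, became 1 of 9 with no filter on low genes (Hmga1, from 4 UMIs), beside 9.20% of 15526 genes. With Cdkn2b it became 2 of 5 (Lbr and Hmgb2), beside 15.3% of 7058 genes. The log2 ratio of Lmna, 0.37, was -0.015 in library 2 alone, where 36 cells had no Cdkn2a UMI. The causes were not tested. Depth limits Lmnb1, Lmnb2, Hmgb3 and Hmga1 most.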

Other observations

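Partner genes of the lamina and of chromatin were compared in endothelial-like cells and all other cells, as counts past 1.5-fold. Of all 10162 genes 34.7% were higher and 19.1% lower by that rule, and the counts of each list are to be read against those shares. Of 22 other genes of the lamina and nuclear envelope 7 were higher, near the share of all genes, and 1 was lower, with a median log2 ratio of 0.40 beside 0.36 for all genes. Syne1, which encodes the outer-membrane protein nesprin-1, had 4.05 UMIs per 10000 against 0.512, and Sun1, its partner in the inner membrane, 0.806 against 0.188. Syne2 (nesprin-2) was at 1.3 against 0.426, and Zmpste24, the protease that matures prelamin A, at 0.843 against 0.327. Of 17 chaperones of H2A.Z and H3.3 8 were higher and 0 lower, with Anp32e, which removes H2A.Z from nucleosomes, at 1.43 against 0.620. Of 10 other histone variants and linkers 1 was higher and 3 were lower, among them the centromeric histone Cenpa at 0.0562 against 0.366. Of 15 heterochromatin genes 4 were higher, a smaller share than of all genes, and 0 lower, with Ezh1 at 0.876 against 0.325 and Dnmt1 at 0.567 against 0.201.

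Receptors that can bind HMGB1 had 1 of 5 genes higher and 3 lower. The lower ones, Tlr2, Sdc1 and Havcr2, passed the 5% filter only through the other cells, so their direction was partly set by the filter. Tlr2 was at 0.0646 against 0.792, and Cd24a at 3.5 against 1.55. Of 11 other HMG genes 2 were higher and 3 lower, with Hmgn2 at 1.13 against 0.516 and Hmgn3 at 0.0590 against 0.395. Among the genes counted as lower, Hmgn3 and Tox of this list and Cenpa and H1fx of the histone list passed the filter in the same way. Of 19 listed genes of cycling cells 9 passed the filter, and of these 5 were higher and 2 lower. Stmn1 was at 2.82 against 0.259 and the tubulin gene Tubb5 at 2.35 against 1.23, in cells of which none had a Mki67 or Top2a UMI. The lower ones were Cks2 (0.0197 against 0.278) and Cks1b (0.0140 against 0.152), which passed the filter only through the other cells.

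Between endothelial-like cells with and without Cdkn2a, as counts at least 25% higher or 20% lower after matching, 2 of 18 lamina genes were higher and 2 lower, 3 of 16 chaperones were higher and 1 lower, and 0 of 13 heterochromatin genes were higher and 1 lower. Of all 7047 genes 12% were higher and 9.35% lower. The higher ones were Tmem43 (0.220 against 0.13) and Tor1aip2 (0.459 against 0.347) of the lamina list and the chaperone genes Hira (0.244 against 0.146), Daxx (0.211 against 0.134) and Ruvbl1 (0.589 against 0.448). The lower ones were Syne2 (1.07 against 1.46) and Matr3 (1.34 against 1.70) of the lamina list, Znhit1, a subunit of the complex that deposits H2A.Z (0.536 against 0.906), and Eed, a subunit of Polycomb complex PRC2 (0.235 against 0.401). The linker histone gene H1f0 was at 0.493 against 0.860. These lists were not compared within library and cluster.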
